A study of Homo sapiens with 18 samples.

Results

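The response of gene expression to ONECUT2 overexpression was compared between 22Rv1 and LNCaP, both established lines of human prostate cancer. For each gene, the change in LNCaP (overexpression minus control) was set against the change in 22Rv1, and their difference was tested. Sizes were read for genes whose mean exceeded a log2 value of 4 in all 4 groups, since lower values of this array lie near background. Of 9515 such genes, 4108 had a response that differed between the lines, and 547 of these changed in opposite directions.

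The array groups were 22Rv1 control, 22Rv1 carrying an ONECUT2 overexpression construct, LNCaP control, and LNCaP carrying that construct, with 3 arrays in each. The construct was a lentiviral vector with the full-length ONECUT2 cDNA, Myc and DDK tags and puromycin resistance, and transduced cells were kept as a stable line after puromycin. Control cells are labelled as given vehicle, and the labels do not say that they carried an empty vector or saw puromycin. Transduction and drug selection therefore cannot be told apart from ONECUT2 in either line. Total RNA was read on Affymetrix U133 Plus 2.0 arrays, and nothing says that the 3 samples of a group came from separate transductions or cultures. The p-values then measure only the spread between these samples, which may be technical.

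ONECUT2 is a transcription factor with a cut domain and a homeodomain, related to HNF6 and known from liver, pancreas and nervous system development. In prostate cancer it is known from tumours that escape hormone therapy. 22Rv1 grew from a xenograft of a human prostate carcinoma, whereas LNCaP came from a metastasis and depends on androgen.

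The arrays agreed closely within groups except for LNCaP overexpression. Each array correlated with the others of its group at a mean r of at least 0.997, but at 0.978, 0.985 and 0.988 for LNCaP overexpression replicates 1, 2 and 3. Over genes the median SD within that group was 0.293, against 0.0901 to 0.0975 in the other groups. Replicate 1 lay nearest the LNCaP controls, with a mean r of 0.969 against 0.948 and 0.953. Replicate 3 read more of the genes that LNCaP controls lack. Of 79 genes with a mean over 9 in 22Rv1 control and under 4 in LNCaP control, 50, 47 and 28 read under 4 on replicates 1, 2 and 3. On 22Rv1 overexpression arrays the beta-actin control probe sets had a 3' minus 5' difference of 8.06 ± 0.70 (SD, n = 3), against 4.11 ± 0.41 in 22Rv1 control, while LNCaP gave 2.85 ± 0.56 and 2.94 ± 0.25. An exact two-sided permutation test gave p = 0.1 in 22Rv1, the smallest that 3 against 3 arrays allow, and p = 0.8 in LNCaP. The same difference went from -0.70 to -0.43 in 22Rv1 for GAPDH (exact permutation p = 0.1) and from -0.68 to -0.68 in LNCaP (exact permutation p = 0.9). For the ribosomal RNA control it went from -1.60 to 0.10 in 22Rv1 and from -2.56 to -1.60 in LNCaP (exact permutation p = 0.1 in each line). The levels of its 3', 5' and middle probe sets changed by -1.73, -3.43 and -3.80 in 22Rv1, and by 0.59, -0.36 and -0.59 in LNCaP. The part of these changes in any result was not tested. Luminal markers (HOXB13, FOXA1, KRT8, KRT18 and KLK3) averaged above 4 in all 4 groups, whereas 0 of 4 basal and 0 of 4 leukocyte markers did. Of 7 stromal markers, 4 did in 22Rv1 control and 1 in 22Rv1 overexpression, with summed log2 levels of 30.2 to 31.0 and 27.3 to 28.1, against 2 in each LNCaP group. The part of these markers in any result was not tested.

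ONECUT2 itself rose in both lines on the probe set that stood for the gene. Its level was 8.23, 8.15 and 8.25 on the 22Rv1 control arrays and 8.59, 8.81 and 8.85 on the overexpression arrays. In LNCaP it was 6.58, 6.53 and 6.72 in control and 7.23, 7.31 and 7.28 in overexpression. The rise was 0.54 ± 0.16 (SE from the model, 3 arrays against 3) in 22Rv1 and 0.66 ± 0.16 in LNCaP, and the difference of 0.12 did not pass (limma adjusted p = 0.673), with a 95% interval of 0.467 to either side. Here and below, the SE of a change rests on 1 spread per gene pooled over all 6 groups, so it is alike in both lines. It can understate the spread of LNCaP overexpression, where the median SD was 0.293, and overstate that of the tighter groups. The probe sets disagreed. The one that rose most in LNCaP did so further than in 22Rv1, by 2.55 ± 0.56 (adjusted p = 0.00387), with LNCaP control arrays between 2.74 and 3.04. Another rose further in 22Rv1 (difference -0.64 ± 0.21, adjusted p = 0.0371), and on a further one, which fell by 0.97 in 22Rv1, the difference was 1.201 ± 0.323 (adjusted p = 0.0109). How much ONECUT2 each line carried was thus not settled by these arrays, and no gene was scaled to it.

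The first question was how far the lines responded alike. Over the 9515 genes the LNCaP and the 22Rv1 change had the same sign in 70.3%, with a Pearson r of 0.628 and a Spearman rho of 0.582 across genes, which are not independent replicates. Changes were spread more widely in LNCaP (SD over genes 1.08) than in 22Rv1 (0.877). The change was called, at an adjusted p under 0.05 from limma, for 5958 genes in LNCaP (62.6%, with 32.1% up and 30.6% down) and 5752 in 22Rv1 (60.5%, with 35.9% up and 24.6% down). Over all 12159 genes tested, array weights by group took the calls from 7557 to 5280 in LNCaP and from 7393 to 9061 in 22Rv1. The difference between the lines was called for 43.2% of genes. It was higher, meaning more positive in LNCaP, for 1554 genes (16.3%) and lower for 2554 (26.8%), and it reached at least 2-fold for 1708 (18%). When each array was centred on its median, the share of all calls that were higher went from 40.5% to 58.8%, and the median difference over the 12159 genes tested went from -0.10 to 0.11. The split of the differences into higher and lower therefore depends on the scaling. Under centring the median change over these genes went from 0.10 to -0.07 in 22Rv1 and from 0.09 to 0.12 in LNCaP.

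**Figure D1:**
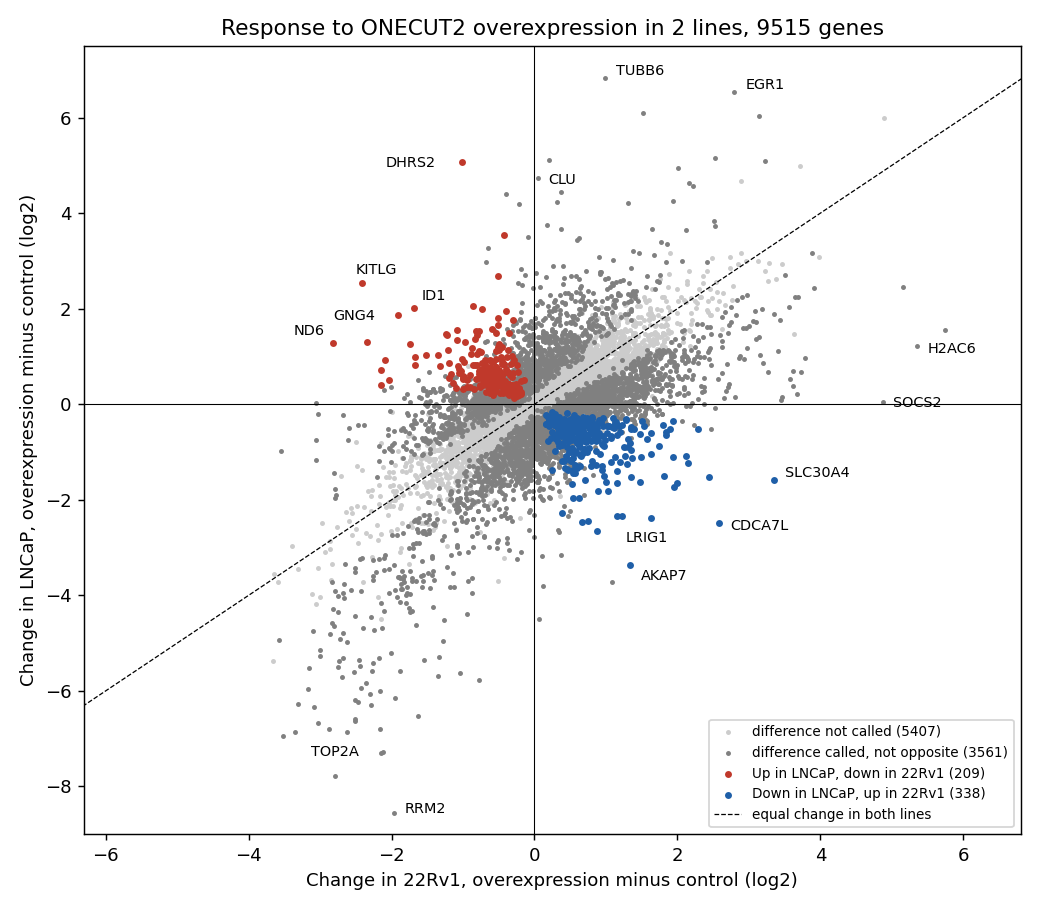
Each point is 1 of 9515 genes with all 4 group means above 4, placed by its log2 change in 22Rv1 (x axis) and in LNCaP (y axis), each the mean of 3 overexpression arrays minus the mean of 3 controls. The 209 red genes rose in LNCaP and fell in 22Rv1, the 338 blue genes did the reverse, and RRM2 and TUBB6 lie far from the dashed line of equal change because LNCaP responded much more.

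Most of the 4108 genes did not reverse. 280 genes rose in both lines and more in LNCaP (2.94%), and 433 fell in both and more in LNCaP (4.55%). A further 357 rose in both and more in 22Rv1 (3.75%), and 129 fell in both and more in 22Rv1 (1.36%). In LNCaP alone 520 were called up (5.47%) and 695 down (7.3%), and in 22Rv1 alone 692 up (7.27%) and 383 down (4.03%), while 72 were called in neither line (0.757%). Being called in 1 line alone does not show that the other line was still. The 95% interval of the change in the other line lay within 0.5 of 0 for 289 and 379 of the LNCaP genes, and for 432 and 222 of the 22Rv1 genes, in that order.

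The reversals were 5.75% of genes: 209 rose in LNCaP and fell in 22Rv1 (2.2%), and 338 fell in LNCaP and rose in 22Rv1 (3.55%). In 452 of the 547 the overexpression arrays lay wholly on 1 side of the controls in each line, and in opposite ways (4.75% of genes). Most reversals were modest. The median change was 0.61 in LNCaP and -0.56 in 22Rv1 in the first direction, and -0.59 and 0.60 in the second, and 40 genes (0.42%) changed at least 2-fold in both lines, 14 in the first direction (0.147%) and 26 in the second (0.273%). The count was 1041 without LNCaP overexpression replicate 1, with 513 genes shared. It was 428 with array weights by group, with 276 shared, and 445 with the mean of all probe sets of a gene, with 294 shared. Centring the arrays moved the first direction to 386 and the second to 204. The gap between the lines was narrower with overexpression than in control for 264 of the 547 (48.3%), against 44.7% of all 9515 genes. Its median over the 547 was 0.70 in control and 0.82 with overexpression.

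Reversing genes were ranked only if their overexpression arrays lay wholly on 1 side of the controls in both lines. KITLG had the widest reversal among genes that rose in LNCaP, when genes were ranked by the smaller of their changes. It encodes stem cell factor, the ligand of the KIT receptor. Its level was 9.07, 8.84 and 8.90 in 22Rv1 control and 6.47, 6.47 and 6.65 in 22Rv1 overexpression. In LNCaP it was 6.07, 5.94 and 5.63 in control and 9.48, 7.62 and 8.12 in overexpression. The overexpression arrays of LNCaP came close to the level of 22Rv1 control. The change was 2.53 ± 0.31 in LNCaP and -2.41 ± 0.31 in 22Rv1, and the difference of 4.94 ± 0.44 (adjusted p = 2.52e-07) was 4.40 without LNCaP overexpression replicate 1, the array with the highest reading.

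ID1, a target of BMP signalling that blocks the DNA binding of basic helix-loop-helix factors, reversed at a high level of expression. It read 11.57, 11.82 and 11.59 in 22Rv1 control against 10.07, 9.82 and 10.03 with overexpression. LNCaP read 9.38, 9.06 and 8.85 in control against 11.26, 11.42 and 10.68. All LNCaP overexpression arrays thus stood above all 22Rv1 overexpression arrays, whereas the controls stood the other way round. The change was 2.02 ± 0.17 in LNCaP and -1.69 ± 0.17 in 22Rv1 (difference 3.71 ± 0.24, adjusted p = 7.94e-09).

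BAX encodes a pore-forming protein of the BCL2 family that releases cytochrome c in apoptosis. Its control arrays overlapped between the lines. Control arrays read 7.74, 7.39 and 7.43 in 22Rv1, against 7.43, 7.62 and 7.55 for LNCaP. With overexpression 22Rv1 read 6.22, 5.23 and 5.90, and LNCaP read 8.67, 8.99 and 8.73. The gene fell by 1.74 ± 0.21 in 22Rv1 and rose by 1.26 ± 0.21 in LNCaP (difference 3.00 ± 0.30, adjusted p = 8.16e-07). A second BAX probe set went the same ways, with changes of -1.04 and 1.05.

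ND6, a complex I subunit and the only protein-coding gene on the light strand of mitochondrial DNA, fell in 22Rv1 from 9.39, 8.80 and 9.13 to 6.47, 6.05 and 6.36. In LNCaP it rose from 10.96, 10.66 and 11.04 to 11.52, 12.70 and 12.31. The difference was 4.11 ± 0.35 (limma adjusted p = 1.52e-07). Of the 6 other mitochondrially encoded genes tested, the difference was called for ND2 alone, at 0.30 ± 0.08 (adjusted p = 0.00417). ND4 had 0.09 ± 0.04 and COX1 0.00 ± 0.14, so the reversal of ND6 was not shared by the genes on the other strand that were tested. The ribosomal RNA control probe sets also fell with overexpression in 22Rv1, and the part of that in the ND6 reading was not tested.

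DHRS2, a short-chain dehydrogenase, had the largest difference of the genes that rose in LNCaP and fell in 22Rv1 by this ranking. It rose 33.7-fold in LNCaP, from 6.17, 5.92 and 6.37 to 10.04, 12.05 and 11.59, and fell by 1.02 ± 0.33 in 22Rv1 (adjusted p = 0.014). GNG4, a G protein gamma subunit, rose by 1.87 ± 0.24 in LNCaP and fell by 1.90 ± 0.24 in 22Rv1. Another GNG4 probe set changed in 22Rv1 by 0.25 and did not show the fall. LRATD1, a protein with an LRAT domain, rose by 1.31 ± 0.21 and fell by 2.34 ± 0.21. KLB, which encodes beta-klotho, a co-receptor of endocrine FGFs, rose by 1.45 ± 0.32 and fell by 1.23 ± 0.32. The LNCaP control means of GNG4, LRATD1 and KLB were 4.48, 4.51 and 4.74, near background. PSENEN, a subunit of gamma-secretase, rose by 1.03 ± 0.24 and fell by 1.35 ± 0.24. Its LNCaP rise was not called with array weights by group (adjusted p = 0.0574). ASMTL, in the pseudoautosomal region of the X chromosome, rose by 1.13 ± 0.17 and fell by 1.21 ± 0.17, and its other probe sets reversed as well, with differences of 2.80 and 3.53. EOLA2 rose by 1.00 ± 0.18 and fell by 1.68 ± 0.18, read by a probe set that may also bind its close copy EOLA1.

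**Figure D2:**
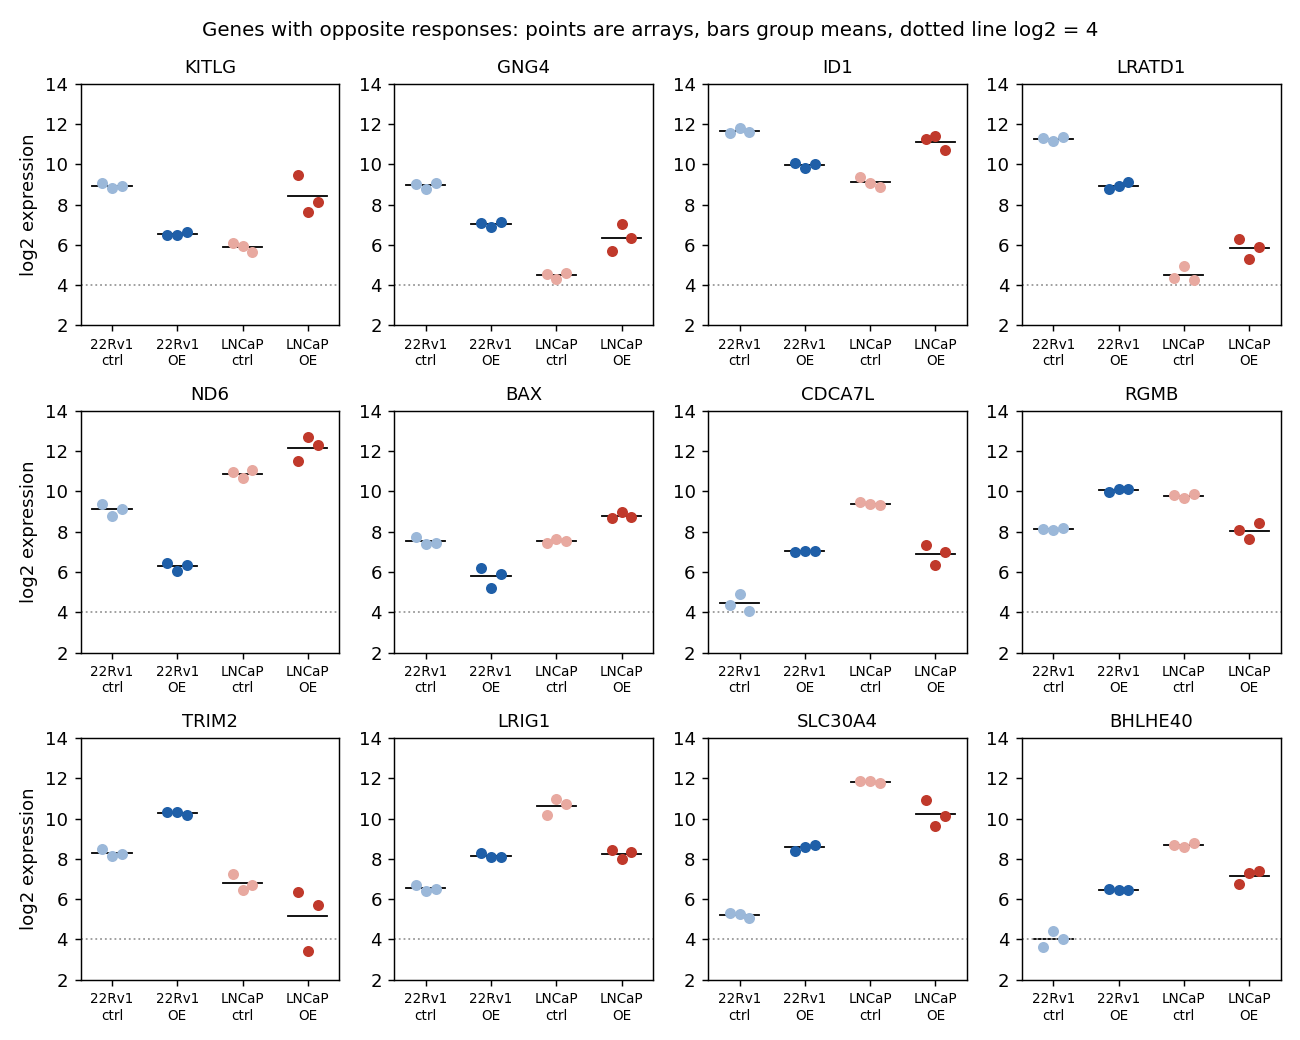
Log2 expression of the first 6 genes of each direction by the ranking rule, with 1 point per array, a black bar at the mean of each group of 3, and a dotted line at log2 = 4. The rule took only genes whose overexpression (OE) points lie wholly on opposite sides of their controls (ctrl) in the 2 lines. Every panel therefore shows this. TRIM2 on LNCaP overexpression replicate 2 and BHLHE40 on 22Rv1 control replicate 1 fall below the dotted line.

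Among genes that fell in LNCaP and rose in 22Rv1, CDCA7L led. It encodes a MYC-interacting nuclear protein of the CDCA7 family. LNCaP control arrays read 9.48, 9.36 and 9.32, and overexpression 7.33, 6.36 and 6.998. The 22Rv1 controls read 4.35, 4.93 and 4.06, near background, and overexpression 7.005, 7.04 and 7.06. The lines were thus far apart in control and within 1 log2 unit of each other with overexpression, with a difference of change of -5.08 ± 0.32 (adjusted p = 5.57e-09).

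RGMB, a co-receptor for BMP ligands, was high in all groups. It read 9.81, 9.68 and 9.87 in LNCaP control and 8.09, 7.62 and 8.43 in LNCaP overexpression. In 22Rv1 it read 8.12, 8.09 and 8.19 in control and 9.98, 10.14 and 10.11 in overexpression. The lines exchanged places: overexpression in each brought the level to about that of the other line's control. The change was -1.74 ± 0.15 in LNCaP and 1.95 ± 0.15 in 22Rv1 (difference -3.68 ± 0.21, adjusted p = 1.88e-09). A second probe set above 4 in all groups reversed too, at -1.78 and 1.08.

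LRIG1, a membrane protein that restrains receptors of the EGFR family, fell in LNCaP from 10.17, 10.98 and 10.74 to 8.42, 7.996 and 8.32, and rose in 22Rv1 from 6.68, 6.42 and 6.503 to 8.31, 8.10 and 8.09. Overexpression arrays of both lines ended within 0.5 of each other, with a difference of change of -4.02 ± 0.25 (adjusted p = 5.96e-09). SLC30A4, a zinc transporter, fell by 1.59 ± 0.24 in LNCaP and rose 10.2-fold in 22Rv1, from 5.33, 5.26 and 5.08 to 8.41, 8.59 and 8.71. AKAP7, which anchors protein kinase A, fell by 3.37 ± 0.21 and rose by 1.34 ± 0.21, and its LNCaP overexpression arrays ended near the 22Rv1 controls.

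Regulators of transcription and signalling made up several of the others. BHLHE40, a basic helix-loop-helix repressor linked to the circadian clock, fell by 1.52 ± 0.22 in LNCaP and rose by 2.44 ± 0.22 in 22Rv1. PRKCH, a protein kinase C isoform, fell by 1.63 ± 0.22 and rose by 1.47 ± 0.22. The 22Rv1 control means of BHLHE40 and PRKCH were 4.02 and 4.32, near background. TRIM2, a ubiquitin ligase, fell by 1.64 ± 0.48 and rose by 1.99 ± 0.48, and its LNCaP arrays were far apart at 6.37, 3.42 and 5.71. TBRG1, a growth inhibitor linked to TGF-beta, fell by 1.52 ± 0.26 and rose by 1.36 ± 0.26, and PCNX2 fell by 2.35 ± 0.27 and rose by 1.22 ± 0.27. Of TBRG1 and PCNX2, LNCaP overexpression replicate 1 read 8.66 and 7.91, nearer the controls than the other arrays. SNX25, a sorting nexin, fell by 1.504 ± 0.17 and rose by 1.81 ± 0.17. ABCC1, an efflux pump that exports drug conjugates, fell by 1.25 ± 0.12 and rose by 1.29 ± 0.12, and ABCC4, of the same transporter family, by 0.89 and 1.31 in the same ways.

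RGMB and KITLG are shown as a pair because KITLG ranked first among genes that rose in LNCaP, and RGMB, which ranked after CDCA7L in the other direction, holds the motif searched. The stretches are the 250 bases before the RefSeq start of each gene on GRCh38.p14, at chr5:98768382-98768631 on the plus strand and chr12:88580472-88580721 on the minus strand, written 5′ to 3′ in the direction of the gene, with the motif in capitals.

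RGMB: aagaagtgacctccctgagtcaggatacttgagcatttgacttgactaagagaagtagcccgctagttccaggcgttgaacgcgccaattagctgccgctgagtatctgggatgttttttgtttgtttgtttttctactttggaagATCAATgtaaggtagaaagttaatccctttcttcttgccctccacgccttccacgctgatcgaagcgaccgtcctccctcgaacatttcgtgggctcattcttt

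KITLG: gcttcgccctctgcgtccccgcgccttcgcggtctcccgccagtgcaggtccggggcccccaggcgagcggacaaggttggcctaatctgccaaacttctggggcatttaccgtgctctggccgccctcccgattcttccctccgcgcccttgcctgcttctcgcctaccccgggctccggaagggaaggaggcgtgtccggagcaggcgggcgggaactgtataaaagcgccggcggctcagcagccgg

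The letters ATCAAT and ATCGAT, core forms of sites that ONECUT proteins are known to bind, were searched on both strands. RGMB held 1 ATCAAT, starting 104 bases before the start, in a stretch with 46.8% G and C, and KITLG held neither in a stretch with 69.2%. Of the 24 genes named for reversal, 21 had a promoter in the table, and RGMB was the only one with either motif. Either motif was present in 6.33% of all 27305 promoters and in 3.32% of 7979 promoters of genes with all 4 group means above 4. The shares were 3.85% of 182 promoters of genes that rose in LNCaP and fell in 22Rv1, and 3.40% of 294 for the reverse. The reversing genes thus held these letters about as often as other expressed genes, in a window that covers only the bases just before the start.

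Other probe sets of the 547 genes gave a mixed picture. 229 of these genes had another probe set with all 4 group means above 4, and 320 of 358 such probe sets (89.4%) gave the difference between lines the same sign, against 82.1% for all genes called for the difference. Only 212 (59.2%) gave the same pair of opposite signs, close to the 60.7% of probe sets that matched the signs of any called gene. Of the genes above, PCNX2 had another such probe set with 0.50 in LNCaP and 0.33 in 22Rv1, and that of ABCC1 gave -1.45 and 0.24. The line with the more positive response was thus read alike by most probe sets, and the reversal within each line less often. IDI1, an isomerase of isoprenoid synthesis, was read by a probe set that may bind related transcripts. It rose by 1.35 ± 0.10 in LNCaP and fell by 1.08 ± 0.10 in 22Rv1. Another probe set of that design gave 1.39 and -1.06, and a further one 0.49 and 0.32. The probe set left when all those with names ending in _x_at or _s_at were set aside gave -0.24 and 1.06. Its group means ran from 4.02 to 5.47, near background.

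The gene groups were taken from lists of pathway members, read beside the share of all 12159 tested genes. The difference was called for 44.7% of these, higher for 18.1% and lower for 26.6%. The change was called for 62.2% in LNCaP (34.1% up and 28% down) and for 60.8% in 22Rv1 (36.5% up and 24.3% down). List counts and medians are over all tested members, also those with a group mean under 4.

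**Figure D3:**
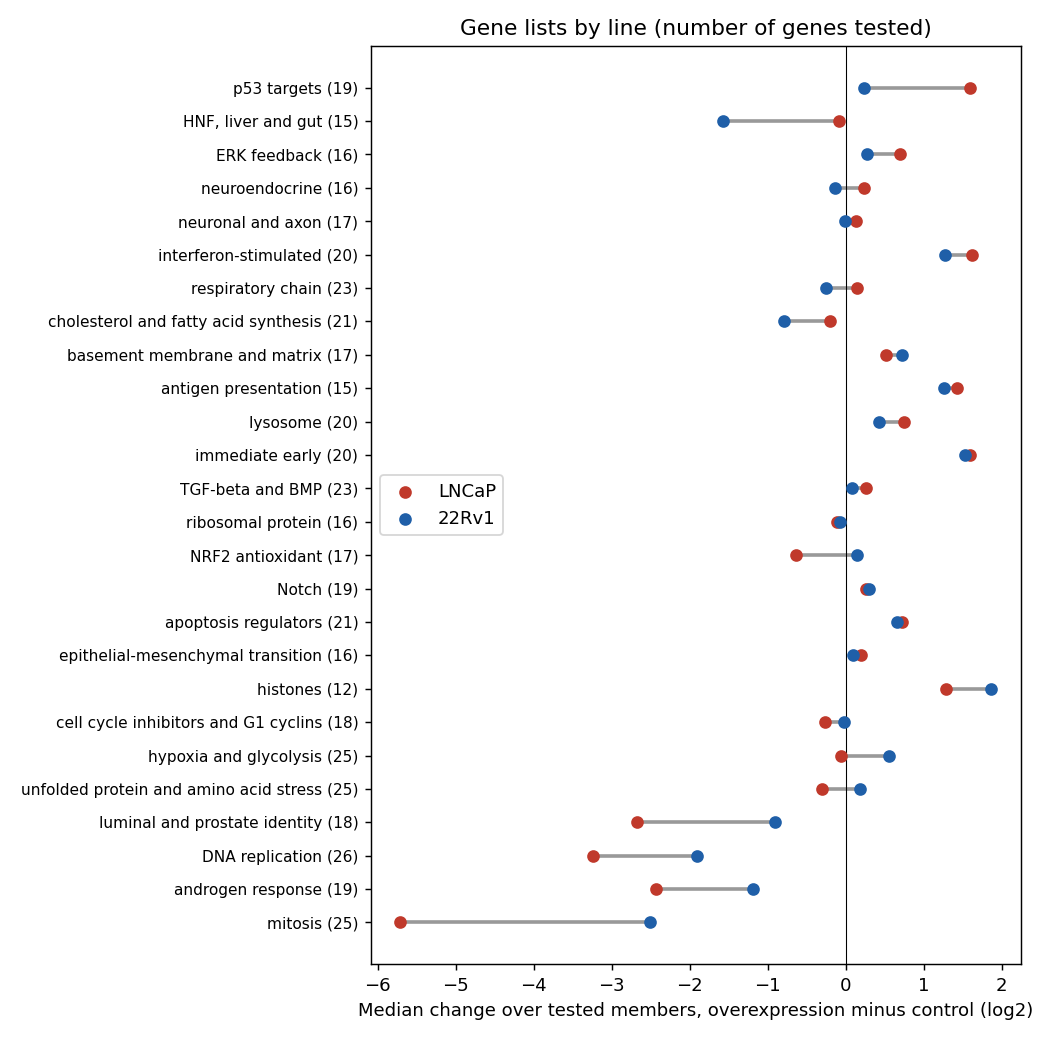
Median log2 change of the tested members of 26 gene lists (also those with a group mean under 4), with the number tested in brackets, in LNCaP (red) and 22Rv1 (blue), ordered by the median difference between the lines. The longest gap is that of mitosis genes, at -5.71 in LNCaP and -2.51 in 22Rv1, and p53 targets are the list with the highest median difference.

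Targets of p53, the DNA damage factor that halts the cell cycle and can start apoptosis, responded more in LNCaP. Of 19 tested, the difference was higher for 15 and lower for 1, with a median of 1.53. In LNCaP 17 rose and 0 fell (median change 1.59), and in 22Rv1 9 rose and 2 fell (median 0.24). CDKN1A, which encodes the cyclin-dependent kinase inhibitor p21, read 7.19, 6.98 and 7.24 in LNCaP control and 10.30, 10.73 and 10.72 with overexpression. In 22Rv1 it went from 5.83, 6.03 and 5.99 to 6.53, 6.57 and 6.52, a rise of 0.59 ± 0.14 against 3.44 ± 0.14 in LNCaP. The arrays did not overlap in either line, so both rose, and LNCaP rose further by 2.85 ± 0.19 (adjusted p = 1.52e-08).

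Several p53 targets moved in LNCaP with little change in 22Rv1. GADD45A, a growth arrest protein, rose by 2.82 in LNCaP, and its change in 22Rv1 was -0.19 (difference 3.01 ± 0.40, adjusted p = 1.59e-05). PHLDA3, an inhibitor of AKT, rose by 2.46 and differed by 0.07 in 22Rv1. FAS, a death receptor, rose by 1.41, against -0.12, DDB2, a sensor of DNA damage, rose by 1.95, against 0.24, and the nuclease gene AEN rose by 1.57, against -0.39. The targets that fell in 22Rv1 were BAX, described above, and GDF15, a stress cytokine, which fell by 1.64 there and differed by 0.50 in LNCaP. The list was not uniform. SESN2, a stress sensor of amino acid supply, rose by 1.81 in LNCaP and 1.87 in 22Rv1 (difference -0.06, 95% interval 0.495 to either side), and the death receptor TNFRSF10B rose further in 22Rv1 (1.24 against 0.42). Leaving out LNCaP overexpression replicate 1 or 3 gave counts of 15 and 1 as well.

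Subunits of the respiratory chain, which pass electrons to oxygen in mitochondria, mostly had a small difference between the lines, and 3 reversed. Of 23 subunits encoded in the nucleus, the difference was higher for 17 and lower for 0, with a median of 0.44. In LNCaP 10 rose and 1 fell (median 0.15), and in 22Rv1 0 rose and 11 fell (median -0.25). SDHA, the flavoprotein of complex II, read 8.56, 8.48 and 8.48 in LNCaP control and 9.91, 9.50 and 9.88 with overexpression. In 22Rv1 it read 9.20, 9.23 and 9.06 against 8.88, 8.44 and 8.68. It rose by 1.26 ± 0.17 and fell by 0.50 ± 0.17 (adjusted p = 0.0164), the latter not called without 22Rv1 overexpression replicate 2 (-0.38, adjusted p = 0.0853) or control replicate 2 (-0.46, adjusted p = 0.0519).

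COX7B of complex IV and UQCRB of complex III also reversed, by 0.34 and -0.35, and by 0.21 and -0.24. NDUFS3 and NDUFB8 of complex I rose by 0.40 and 0.42 in LNCaP, and their changes in 22Rv1 were -0.32 and -0.28. NDUFV1, also of complex I, fell by 0.81 in 22Rv1 and differed by -0.09 in LNCaP, and NDUFS1 fell in both, by 1.07 and 0.47. The subunits that did not pass for the difference included COX5A (0.05 ± 0.13) and SDHC (0.17 ± 0.16). Of 16 ribosomal protein genes, also expressed at a high level, the difference was called for 12.5%, with 1 higher and 1 lower. Array weights by group gave 0 ribosomal calls for the difference, and 6 rising in LNCaP and 17 falling in 22Rv1 on the respiratory chain list. These counts also moved with the scaling and with 1 array: centring gave 21 higher and 22 falling in 22Rv1, and leaving out LNCaP overexpression replicate 1 gave 21 higher, 16 rising in LNCaP and 17 falling in 22Rv1.

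**Figure D4:**
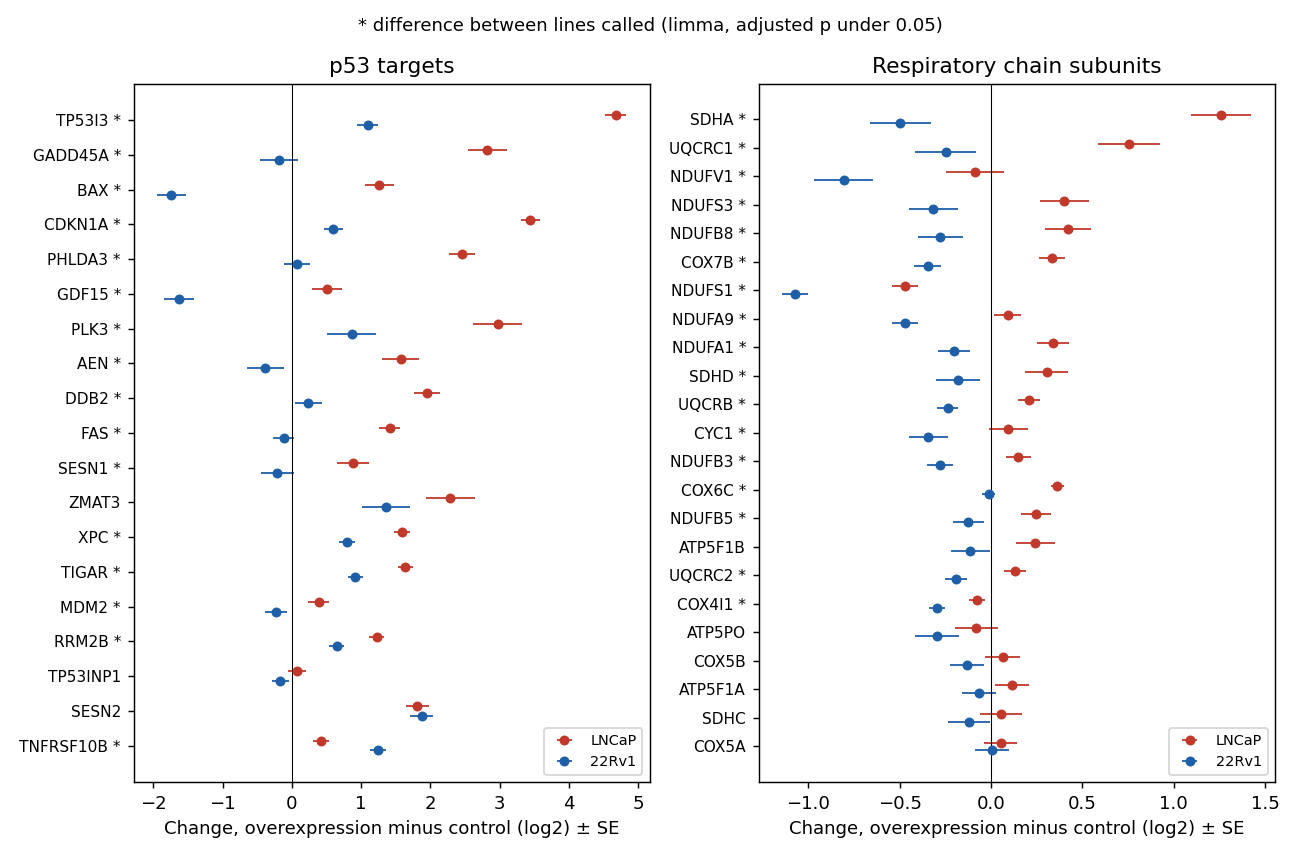
Log2 change with its SE from the model (n = 3 against 3 arrays) in LNCaP (red) and 22Rv1 (blue) for the 19 tested p53 targets and the 23 tested respiratory chain subunits, on separate scales. Red lies to the right of blue for all but SESN2 and TNFRSF10B, and of the subunits COX5A has the smallest gap.

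Regulators of apoptosis beyond BAX went several ways. Of 21 tested, the difference was higher for 4 and lower for 7. PMAIP1, which encodes the BH3-only activator NOXA, read 9.35, 9.65 and 9.30 in LNCaP control and 10.55, 12.11 and 11.59 with overexpression. In 22Rv1 it went from 8.51, 8.64 and 8.82 to 7.89, 7.87 and 7.99. It rose by 1.98 ± 0.26 and fell by 0.74 ± 0.26 (adjusted p = 0.0204), and the fall was not called when only the 12 arrays were fitted (adjusted p = 0.0523). BCL2L11, which encodes the activator BIM, reversed the other way, falling by 0.80 in LNCaP and rising by 0.63 in 22Rv1. Of 2 other BCL2L11 probe sets above 4 in all groups, 0 gave that pair of signs, though 2 gave the difference the same sign. The protective genes XIAP, a caspase inhibitor, BCL2L1, which encodes BCL-XL, and BCL2L2 rose in 22Rv1 by 0.96, 0.64 and 0.66, against 0.20, -0.16 and -0.09 in LNCaP, while MCL1, also protective, rose in both. BIRC5, the mitotic protein survivin, fell in both and more in LNCaP (-6.26 against -3.31). Leaving out LNCaP overexpression replicate 1 gave 7 higher and 7 lower.

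Among genes of the G1 phase, CCND1, which encodes cyclin D1, the partner of CDK4 and CDK6, reversed at a very high level. The 22Rv1 arrays read 13.33, 13.17 and 13.30 in control and 12.25, 12.15 and 12.21 with overexpression. LNCaP read 11.19, 10.95 and 11.14, then 11.87, 11.66 and 11.69. The changes by this probe set were -1.06 ± 0.08 and 0.65 ± 0.08 (difference 1.70 ± 0.11, adjusted p = 5.54e-09). A second CCND1 probe set fell by 1.39 in 22Rv1 but changed by 0.01 in LNCaP, so the LNCaP rise was not read by both. CDK6 itself fell in LNCaP and rose in 22Rv1, but its LNCaP overexpression mean lay under 4. RBL2, a pocket protein related to RB, fell by 0.70 in LNCaP and rose by 0.45 in 22Rv1. The inhibitors CDKN1C (p57) and CDKN2B (p15) rose in both and more in LNCaP, by 4.25 against 1.93 and by 2.53 against 1.08. CDKN1B, the inhibitor p27, did not pass in difference (-0.16, 95% interval 0.214 to either side). Over the 18 tested the difference was higher for 6 and lower for 6.

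The response to amino acid shortage and to unfolded protein split by gene. Of 25 tested, the difference was higher for 6 and lower for 10, with median changes of -0.30 in LNCaP and 0.18 in 22Rv1. ASNS, asparagine synthetase and a target of ATF4, read 12.02, 12.28 and 11.93 in LNCaP control and 11.38, 11.43 and 11.44 with overexpression. In 22Rv1 it read 12.25, 12.41 and 12.43, then 13.21, 13.02 and 13.10. It fell by 0.66 ± 0.08 and rose by 0.75 ± 0.08, with no overlap in either line (difference -1.41 ± 0.12, adjusted p = 1.39e-07). TRIB3, a pseudokinase induced by ATF4, rose by 0.98 in 22Rv1, and its change in LNCaP was -0.04. MTHFD2 of mitochondrial folate metabolism and PSAT1 of serine synthesis fell by 1.18 and 1.05 in LNCaP, against 0.18 and -0.18 in 22Rv1.

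DDIT3 and ATF3, stress transcription factors, rose in both lines and further in LNCaP, by 2.15 against 1.30 and by 2.16 against 1.44. HSPA5, the chaperone BiP, rose by 0.18 in LNCaP and fell by 0.58 in 22Rv1, and SLC3A2, the heavy chain of amino acid transporters, rose by 0.44 and fell by 1.14. CEBPB, a bZIP factor, fell by 0.30 and rose by 0.71. These reversals were less steady than that of ASNS: of 23 other settings, HSPA5 stayed opposite in 13 and CEBPB in 9. Of 22 settings with a value, SLC3A2 did in 7 and ASNS in 21. SLC7A11, the cystine transporter, shows how 1 array can set a value: LNCaP overexpression read 11.44, 6.86 and 7.36, against 11.91, 11.97 and 11.49 in control.

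On the BMP and TGF-beta list, 3 targets reversed (ID1, ID4 and SMAD7), and the difference was called for 47.8%, near the share of all genes. The family signals through serine kinase receptors to SMAD proteins, with ID genes among its direct targets. Of 23 tested, the difference was higher for 8 and lower for 3. ID1 is described above. ID2, of the same family, rose by 2.11 ± 0.19 in LNCaP and differed by 0.11 ± 0.19 in 22Rv1, whereas ID3 fell by 1.48 ± 0.16 in 22Rv1 and differed by -0.16 ± 0.16 in LNCaP. ID4 rose in LNCaP and fell in 22Rv1, but its LNCaP control mean lay under 4, so no size is given. SMAD7, an inhibitor of the pathway that it is induced by, rose by 0.67 and fell by 0.38. Among receptors, TGFBR3 (betaglycan) rose in both and more in 22Rv1, by 2.69 against 0.85. BMPR2 rose by 1.03 in 22Rv1, against -0.04. Leaving out LNCaP overexpression replicate 1 gave 8 lower, and leaving out 22Rv1 control replicate 1, 22Rv1 overexpression replicate 2 or LNCaP control replicate 3 gave 1.

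In hypoxia and glycolysis, 3 of 25 differences were higher and 9 lower. ANKRD37, a target of HIF1, fell by 0.72 in LNCaP and rose by 1.31 in 22Rv1, and EGLN1, the oxygen sensor PHD2, fell by 0.46 and rose by 0.62. VEGFA, the angiogenic growth factor, rose by 0.76 in 22Rv1, against -0.06. HK2, hexokinase 2, and PDK1, which restrains pyruvate dehydrogenase, fell in both and more in LNCaP (-1.86 against -0.74 and -1.47 against -0.36). PGD, of the pentose phosphate pathway and on the NRF2 list, rose by 0.50 ± 0.19 in LNCaP (adjusted p = 0.0312) and fell by 2.04 ± 0.19 in 22Rv1, and its LNCaP rise was not called with array weights by group (adjusted p = 0.346). On the NRF2 list the difference was higher for 2 and lower for 6 of 17, with GSR and GCLC of glutathione metabolism falling by 1.13 and 0.82 in LNCaP, against 0.15 and 0.15. Leaving out LNCaP overexpression replicate 1 gave 6 higher on the hypoxia list. On the NRF2 list it was 4 higher without any 1 of the LNCaP overexpression arrays, and 3 lower without any 1 of 8 arrays, LNCaP overexpression replicates 2 and 3 among them.

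Genes of cholesterol and fatty acid synthesis fell more often in 22Rv1. Of 21 tested, 0 rose and 15 fell in 22Rv1, and 3 rose and 7 fell in LNCaP, with differences higher for 9 and lower for 2. HMGCS1, which makes the precursor of mevalonate, fell by 0.94 in 22Rv1 and differed by 0.38 in LNCaP. HSD17B7 and NSDHL, later in the pathway, fell by 0.80 and 0.68, against -0.05 in LNCaP for both. SC5D, near its end, rose by 0.82 in LNCaP, against -0.05 in 22Rv1. FDPS fell in both (-0.80 and -0.76), and its difference of -0.04 did not pass, with a 95% interval of 0.373 to either side. When LNCaP overexpression replicate 1 was left out, 11 fell in LNCaP and the difference was lower for 6. Leaving out any 1 of several other arrays, LNCaP overexpression replicates 2 and 3 among them, gave 0 lower.

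Lysosomal genes rose in both lines as a rule, 13 of 20 in LNCaP and 14 in 22Rv1, yet 4 reversed. NPC1, the lysosomal cholesterol exporter, read 11.41, 10.88 and 11.25 in LNCaP control and 9.54, 8.86 and 9.27 with overexpression, and 8.63, 8.60 and 8.40 against 9.17, 9.06 and 9.29 in 22Rv1. It fell by 1.95 ± 0.16 and rose by 0.63 ± 0.16, and its partner NPC2 rose in both, by 1.95 and 1.35. SCARB2, a lysosomal membrane protein, and CTSL, a cathepsin, also fell in LNCaP and rose in 22Rv1, by 0.67 and 0.37 and by 0.39 and 0.35. CTSZ did the reverse, by 0.82 and -0.80. With the mean of all probe sets, the 22Rv1 changes of NPC1 and SCARB2 were not called (0.09 and -0.05). Without LNCaP overexpression replicate 1 the difference was higher for 8 rather than 5.

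The deepest differences came from genes that fell in both lines. Of 25 mitosis genes, the difference was lower for 24 and higher for 0, and all 25 fell in both lines. All 4 group means were above 4 for 17 of them. RRM2, a ribonucleotide reductase subunit, read 12.55, 12.67 and 12.51 in LNCaP control and 6.75, 2.14 and 3.17 with overexpression, against 12.22, 12.21 and 12.30 and 10.11, 10.46 and 10.28 in 22Rv1. LNCaP replicate 1 kept more of it, and the other LNCaP arrays lay under 4, so the fall of 8.56 ± 0.73 rests partly on background. DLGAP5, a spindle protein, changed by -7.79 in LNCaP against -2.80 in 22Rv1, ANLN, which shapes the cleavage furrow, by -7.29 against -2.12, and MAD2L1, of the spindle checkpoint, by -6.52 against -1.64. Without LNCaP overexpression replicate 1 the differences of ANLN, MAD2L1 and DLGAP5 went from -5.16, -4.89 and -4.99 to -6.22, -6.04 and -5.97. CCNA2 and CCNB1, cyclins of S phase and mitosis, fell further in LNCaP, with differences of -2.10 ± 0.13 and -2.18 ± 0.16.

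DNA replication genes followed, with smaller gaps. The difference was lower for 19 and higher for 1 of 26, with a median of -1.04. RFC4 and RFC3 of the clamp loader changed by -2.69 and -3.82 in LNCaP, against -1.48 and -1.58 in 22Rv1. RRM1, the large subunit of ribonucleotide reductase, had a difference of -1.003 ± 0.08, but 0.041 with the mean of its probe sets, since another probe set fell further in 22Rv1. Without LNCaP overexpression replicate 1, the difference was higher for 3 replication genes.

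Androgen-responsive genes fell in both lines and further in LNCaP. Of 19 tested, 0 rose and 19 fell in LNCaP, and 1 rose and 14 fell in 22Rv1. The difference was lower for 12 and higher for 1, with a median of -1.70, or -1.13 over the 15 with all 4 group means above 4. KLK2, a kallikrein protease, changed by -6.94 in LNCaP against -3.53 in 22Rv1, FKBP5, a chaperone of steroid receptors, by -2.45 against -1.68, and NDRG1 by -2.76 against -0.87. MAF, a bZIP factor, fell by 2.34 in LNCaP, with 0.46 in 22Rv1. KCNMA1, a potassium channel, fell by 2.44 with -0.31 in 22Rv1, a difference of -2.13. That difference was -0.37 (adjusted p = 0.163) when all probe sets with names ending in _x_at or _s_at were set aside. KLK4 and ELL2 did not pass for the difference, at 0.38 ± 0.30 and -0.10 ± 0.31, with falls of over 2 log2 units in both lines.

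Luminal identity genes did not move as a block. Of 18, the difference was higher for 4 and lower for 7. KRT8, a luminal keratin, rose by 1.53 ± 0.23 in LNCaP and fell by 0.82 ± 0.23 in 22Rv1, whereas its partner KRT18 rose by 0.73 in 22Rv1 and differed by 0.14 in LNCaP. CDH1, which encodes E-cadherin, rose by 0.79 ± 0.06 in 22Rv1, against -0.07 ± 0.06. SPDEF and CREB3L4, secretory transcription factors, fell further in LNCaP (-4.69 against -2.40 and -4.62 against -1.65). CD24, a surface glycoprotein, rose by 3.49 against 0.62. For FOXA1, a pioneer factor, the difference of -1.14 ± 0.70 did not pass (adjusted p = 0.202), but it was -2.08 without LNCaP overexpression replicate 1 (adjusted p = 5.41e-09). Without that array the luminal difference was lower for 11.

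Immediate early genes, switched on quickly by growth signals, rose widely: 19 of 20 in LNCaP and 15 in 22Rv1, with differences higher for 7 and lower for 5. EGR1, a zinc finger factor, rose by 6.53 ± 0.20 in LNCaP and 2.80 ± 0.20 in 22Rv1. JUN, a subunit of AP-1, read 8.59 on average in LNCaP control and 10.13 with overexpression, and differed by -0.18 ± 0.10 in 22Rv1 (difference 1.72 ± 0.14). IER5 rose by 2.504 in LNCaP, against -0.17. Among targets and brakes of ERK signalling, PHLDA1 rose by 4.19 in LNCaP, against -0.21, while SPRED2, an inhibitor of the pathway, rose by 1.00 in 22Rv1, against -0.03. Over the 16 ERK genes tested the difference was higher for 5 and lower for 3, and higher for 8 without LNCaP overexpression replicate 1.

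Some of the genes that rose in both lines rose much further in LNCaP. TUBB6, a beta-tubulin, read 4.52, 4.24 and 4.14 in LNCaP control and 10.80, 11.16 and 11.40 with overexpression. In 22Rv1 it was already high, at 10.88, 11.07 and 10.74, and read 12.07, 11.74 and 11.84 with overexpression. The rise was 6.82 ± 0.16 against 0.99 ± 0.16. TUBA1A, an alpha-tubulin, rose by 6.09 against 1.52, LAMB1, a laminin chain, by 4.94 against 2.01, and HTATIP2 by 4.21 against 1.30. VIM, the mesenchymal filament vimentin, rose by 2.67 in LNCaP, against 0.16, and FN1, fibronectin, fell by 2.77, against -0.01. On the basement membrane and matrix list, which holds LAMB1 and FN1, the difference was higher for 6 and lower for 6 of 17, with 8 up and 4 down in LNCaP.

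Genes that rose further in 22Rv1 included histones. H2AC6, a replication-linked H2A gene with a polyadenylated transcript, read 6.74, 6.71 and 6.69 in 22Rv1 control and 12.24, 12.004 and 11.94 with overexpression. LNCaP controls were already at 11.68, 11.79 and 11.85 and read 13.32, 12.79 and 12.88. The rise was 5.35 ± 0.13 in 22Rv1 and 1.22 ± 0.13 in LNCaP. H2BC21 and H2BC12 rose by 5.15 against 2.45 and by 2.02 against 0.56, although histone genes are near copies and their probe sets may share transcripts. Over 12 histone genes the difference was higher for 1 and lower for 5. LIX1L rose by 5.74 against 1.56, SAT1, which acetylates polyamines, by 3.61 against 0.38, ZBTB18, a zinc finger repressor, by 3.58 against 0.52, and L3MBTL1, a reader of methylated histones, by 3.73 against 0.68.

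Falls that were deeper in 22Rv1 were fewer. MRPS16, a protein of the mitochondrial ribosome, read 8.34, 8.08 and 8.17 in 22Rv1 control and 4.67, 4.88 and 4.42 with overexpression, against 9.10, 9.05 and 9.13 and 7.91, 8.26 and 8.20 in LNCaP. Its change was -3.54 ± 0.14 in 22Rv1 and -0.97 ± 0.14 in LNCaP, with no overlap in either line. MIX23 changed by -3.06 in 22Rv1 against -0.75 in LNCaP, COLEC12, a scavenger receptor, by -3.06 against -1.16, SEMA6A, a semaphorin, by -2.60 against -0.49, and A1CF, a cofactor of RNA editing, by -2.61 against -0.74.

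Some genes changed in 1 line with the other held near 0. SOCS2, a brake on growth hormone and cytokine signalling, read 4.82, 4.82 and 4.70 in 22Rv1 control and 9.63, 9.81 and 9.51 with overexpression, while LNCaP read 9.96, 10.73 and 10.56 in control and 10.62, 10.39 and 10.39 with overexpression. It rose by 4.87 ± 0.17 in 22Rv1, to near the LNCaP level, and the LNCaP change was 0.05 ± 0.17. CLU, the secreted chaperone clusterin, was the mirror case: it rose by 4.73 ± 0.19 in LNCaP, from a mean of 4.88, and changed by 0.05 ± 0.19 in 22Rv1, where the mean was 12.03 in control. CPLX1, a regulator of vesicle fusion, rose by 3.51 in LNCaP, against -0.08, and ELF4, an ETS factor, by 1.81, against 0.00.

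SLPI, a protease inhibitor of secretions, fell in LNCaP from 8.90, 8.99 and 8.96 to 5.56, 5.17 and 4.69. Its 22Rv1 arrays lay between 4.32 and 4.80 throughout, so its lack of a fall there was read close to background. GREB1, a hormone-responsive gene, fell by 2.31 in LNCaP from 7.87, with 5.10 and 5.09 in 22Rv1, and SLC20A1, a phosphate transporter, fell by 2.25, against -0.07. In 22Rv1 alone, CAPN2, a calpain protease, rose by 2.53, VPS53, of a tethering complex, by 2.64, and ZNF264, a zinc finger gene, by 2.81, with -0.09, 0.13 and 0.15 in LNCaP. RBM47, an RNA-binding protein, fell by 2.03 ± 0.13 in 22Rv1, against -0.13 ± 0.13 in LNCaP. KCNMB4, a potassium channel subunit, fell by 3.06 in 22Rv1, but its LNCaP means of 4.12 and 4.15 left little room for a fall. The Notch ligand gene DLL1 rose by 3.78 in 22Rv1 against 0.97 in LNCaP, and DLL3 by 2.34 with 0.26 in LNCaP.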

How the data were processed

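The deposited values are log2 expression values made by the authors with GCRMA, per the submitters' processing notes, its version not given in the sources used here. GCRMA models background from each probe's base makeup, and array medians ran from 3.26 to 3.34. Of 54675 probe sets, 41097 had 1 gene symbol, 1801 several and 11721 none (62 are platform controls). For each of 19775 genes the probe set with the highest mean was used. Genes above 4 on at least 3 of 18 arrays were tested, 12159 in all.

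One limma 3.58.1 model (R 4.3.3) held a mean for each of 6 groups, including the 22Rv1 shRNA groups, which share only the spread, with 12 residual degrees of freedom, trend and robust options. Benjamini-Hochberg adjustment ran over all genes tested. The model was also run on simulated data with the same spread in every group, which cannot test the effect of the wider LNCaP overexpression spread.

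Replicate numbers did not pair samples: correlations of same-numbered deviations ran from -0.217 to 0.137. The members, lists and rules were chosen with earlier results of these data known. Named were 12 opposite genes per direction by the smaller change with no overlap of arrays, 5 per class of same-sign or one-line response, 3 per list by p, and 6 genes whatever their result. Other list members were picked after their values were seen. Alternatives covered scaling, filters, probe sets, array weights, a replicate block, a minimum size and each array left out.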

Additional observations from a re-analysis of the deposited data

Results flagged for a closer look

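The response to ONECUT2 overexpression differed between the lines, by the test of the difference itself, for 4108 genes with all 4 group means above 4. Each gene named for a reversal had to pass that test to be named, so its passing adds no support. The differences are given in log2 units of the LNCaP change minus the 22Rv1 change. Among genes that rose in LNCaP and fell in 22Rv1, the difference was 6.09 for DHRS2, 4.94 for KITLG, 4.11 for ND6 and 3.77 for GNG4. It was 3.71 for ID1, 3.65 for LRATD1, 3.00 for BAX, 2.68 for KLB and 2.67 for EOLA2. It was 2.43 for IDI1, 2.38 for PSENEN and 2.34 for ASMTL.

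Among genes that fell in LNCaP and rose in 22Rv1, the difference was -5.08 for CDCA7L, -4.94 for SLC30A4, -4.71 for AKAP7 and -4.02 for LRIG1. It was -3.96 for BHLHE40, -3.68 for RGMB, -3.63 for TRIM2 and -3.57 for PCNX2. It was -3.32 for SNX25, -3.10 for PRKCH, -2.88 for TBRG1 and -2.55 for ABCC1.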

How the results depend on the processing

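Of 170 other values of the counts, 155 stayed within 1.5 times. Of 2895 other values of the difference between lines for the 128 named genes, 2848 kept direction and call. Most of these genes were chosen for large or well-called differences in these data, and the tally leaves out the change within each line. PMAIP1 kept its difference in 22 of 22 settings with a value but stayed opposite in 17. Requiring a log2 difference of at least 0.5 (treat) gave 2098 differences, 1378 with all means above 4, 3495 calls in LNCaP, 3302 in 22Rv1 and 40 reversals (13 up in LNCaP, 27 down). Requiring 2-fold in both lines gave 40 (14 and 26). Centring gave 386 and 204. Without 1 array the difference gave 4865 to 7563 calls, 3650 to 5855 with all means above 4, LNCaP 6885 to 8834, 22Rv1 6698 to 8658, and reversals 445 to 1041 (164 to 424 and 275 to 617); each highest value of the difference and the reversals came without LNCaP overexpression replicate 1, at 1041, 424 and 617 reversals. Array weights by group gave 4309 differences and the replicate block 5397, neither moving the counts over all genes by over 1.5 times. The weights did part the lines, with calls going from 7557 to 5280 in LNCaP and from 7393 to 9061 in 22Rv1. Only 276 of the 547 reversals were among the 428 found with array weights, and 294 among the 445 with the mean of all probe sets. Array weights moved several list counts further, among them higher antigen presentation genes from 5 to 3, lower cholesterol list genes from 2 to 0, immediate early from 5 to 3, Notch higher from 3 to 1 and NRF2 list genes up in 22Rv1 from 5 to 8. The block moved 1 list count that far, ribosomal genes down in LNCaP, from 3 to 5; replicate numbers do not pair the samples. Of the 547 reversals, 282 held in every fit without 1 array and 35 in every setting with a value. IDI1 turned to -1.30 (adjusted p = 0.0159) without probe sets with names ending in _x_at or _s_at. RRM1 turned to 0.041 with the mean of probe sets, which was not called. CHGA ran from -0.58 to 0.0063 without 1 array, the latter without 22Rv1 overexpression replicate 1 and not called. SEMA3C, UCHL1, RPL11 and RPS9 lost their call in at least 3 settings. The number of arrays, 3 a group, limits the precision, and the LNCaP overexpression spread is pooled with the tighter groups.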

Other observations

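Interferon-stimulated genes rose in both lines, 14 of 20 tested in LNCaP and 12 in 22Rv1, with different members ahead. ISG15, a ubiquitin-like modifier, rose by 3.20 ± 0.16 in LNCaP against 1.38 ± 0.16 in 22Rv1, and IRF9, a subunit of the interferon-activated complex ISGF3, by 2.48 against 0.65. MX1, an antiviral GTPase, rose by 1.88 ± 0.16 in 22Rv1 and differed by 0.28 ± 0.16 in LNCaP, and the ligase gene HERC5 rose by 2.15 against 0.91. The difference was higher for 7 and lower for 5. Of 15 antigen presentation genes, 12 rose in LNCaP and 10 in 22Rv1. HLA-C, a class I chain, rose by 2.72 in 22Rv1 against 1.67 in LNCaP, and TAP2, a peptide transporter, by 1.43 with 0.30 in LNCaP. PDIA3, a chaperone of class I loading, fell by 0.81 in 22Rv1 and differed by 0.12 in LNCaP. Over that list the difference was higher for 5 and lower for 3, and higher for 8 without LNCaP overexpression replicate 1 and for 3 without any 1 of several other arrays.

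Neuroendocrine markers could seldom be sized, since 4 of 16 tested had all 4 group means above 4. TUBB3, a neuronal tubulin, rose by 0.36 ± 0.09 in LNCaP and differed by -0.10 ± 0.09 in 22Rv1 (difference 0.46 ± 0.13, limma adjusted p = 0.00719). CHGA, a granule protein, and PEG10, a retrotransposon-derived gene, had an LNCaP control mean under 4, of 3.47 and 3.80. For PEG10 the difference was called (adjusted p = 2.2e-07), and LNCaP overexpression averaged 7.47.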
